A study of Mus musculus with 3 samples.

Results

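The genes described here are those that read at least 2-fold higher than wild-type in both of 2 mutant fetal livers, one lacking the nuclease DNase II and the other lacking DNase II together with IFN-IR, whose ligands are the type I interferons. They were chosen by their measured values. Array intensities were raised to at least 0.16, and a probe with 1 gene symbol was kept when its value was at least 2 times wild-type in each mutant and above 1 in at least one of them. Gene symbols beginning with 14 prefixes that cover chemokines, guanylate-binding proteins, MHC genes, immunoproteasome subunits, caspases, cathepsins and similar families were left out. This gave 142 genes, measured by 144 probes, of 13697 genes with a usable probe. A further 37 genes met the same values but carried one of the prefixes. The differences from wild-type were used to choose the genes, so they are given as a description with no test.

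The tissue was fetal liver of E14.5 mouse embryos, and poly(A) RNA was measured on single-colour CodeLink arrays, 1 for each genotype. One array held wild-type liver, another DNase II-deficient liver, and the last DNase II-/- IFN-IR-/- liver, called double-deficient below. Both mutants lack DNase II. The sources used here do not give strain, sex or the number of embryos behind each array. With 1 array for each genotype there is no replicate and no test, and a difference has no replicate check. Values are normalised intensities without a unit, on a scale where the typical probe reads 0.958 to 0.964 in each array, and they are listed in the order wild-type, DNase II-deficient, double-deficient.

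In the fetal liver, macrophages engulf the nuclei that maturing erythroblasts expel, and DNase II digests their DNA in the lysosome. When that digestion fails, undigested DNA is known to set off interferon beta production and, through the type I interferon receptor, the expression of interferon-stimulated genes. Macrophages loaded with DNA also make inflammatory cytokines such as tumour necrosis factor, and this arm does not require the interferon receptor.

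Hepatocyte and erythroid markers were bright in all 3 arrays. The 7 measured hepatocyte markers summed to 2715, 2682 and 2508, and the 6 measured erythroid markers to 1743, 1409 and 1603. Of those erythroid markers, 4 were at least 2-fold lower without DNase II and 0 in the double mutant, among them Klf1, a regulator of erythroid genes, at 15.91, 6.14 and 16.05, while the 2 globin probes carried the sum. Lymphoid markers were mixed. At or below 0.16 in all arrays were 3 of 4 T cell markers, 1 of 4 B cell markers and 2 of 4 NK cell markers, including Cd3e, Ms4a1 and Ncr1. Others were above it, such as Cd79a of the B cell receptor at 9.08, 5.86 and 7.29, Cd4 at 0.904, 1.18 and 1.17, and the cytotoxic granule gene Nkg7 at 0.649, 1.34 and 1.15. The part of these cell types in the values below was not tested. The probe for Dnase2a, the gene of DNase II, read 40.4, 48.6 and 39.7, and that for the receptor chain gene Ifnar1 read 3.60, 4.66 and 3.17, so neither probe was low in the mutant that lacks its gene. The sources used here do not place these probes with respect to the deletions, and the genotypes rest on the labels. Because RNA came from whole organ, fewer or more cells of a type and less or more RNA per cell cannot be told apart.

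Among all 15035 probes with 1 symbol, 4.43% were at least 2-fold above wild-type and above 1 in the DNase II-deficient array, 1.12% were so in the double-deficient array, and 0.958% met the whole rule, which fixed these shares for the members. By the mirror rule, at least 2-fold lower in both mutants and above 1 in wild-type, 44 genes were found. The median member was 4.44-fold above wild-type in the DNase II-deficient array and 2.51-fold above it in the double-deficient array. The ratio ran from 2.07 to 131 in the former and from 2.01 to 33.8 in the latter. Most members therefore stood close to the limit in the double-deficient liver, where 101 of 142 were under 3-fold. Just inside the limit were Serpina3n, Tpd52 and Klf4, whose smaller ratio was 2.01, 2.01 and 2.02. Just outside were Pdgfrl, Rab31 and Rassf4, at 1.999, 1.999 and 1.994. Both ratios share the wild-type array, so a low reading there raises both at once. Wild-type read 1 or less for 81 members and was at or below 0.16 for 9, for which the folds are lower bounds.

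The ratio between the mutants was not part of the rule, although the rule bounds it from below. Of the 142 genes, 128 read lower in the double-deficient array than in the DNase II-deficient array and 14 read higher, with a median log2 difference of -0.72. At least 2-fold lower were 52 genes, against 4.75% of all probes that exceeded 1 in a mutant. Within 1.5-fold of each other were 60, against 77.4% of those probes, and 1 gene, Cd74, was at least 2-fold higher, against 3.16%. The remaining 26 were lower and 3 higher by between 1.5-fold and 2-fold. Since the members were picked for a high DNase II-deficient value, these shares are a description and nothing is read from their distance to the background. Higher in both mutants describes all members, whereas a name such as interferon-receptor independent goes against the values of the 52 genes that were 2-fold lower without the receptor. For the rest, 1 array per genotype does not settle it. The 63 members under 4-fold in the DNase II-deficient array could not be 2-fold lower in the other mutant without leaving the set. Of the 79 members at 4-fold or more, 52 were at least 2-fold lower in the double-deficient array and 10 were within 1.5-fold.

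**Figure D1:**
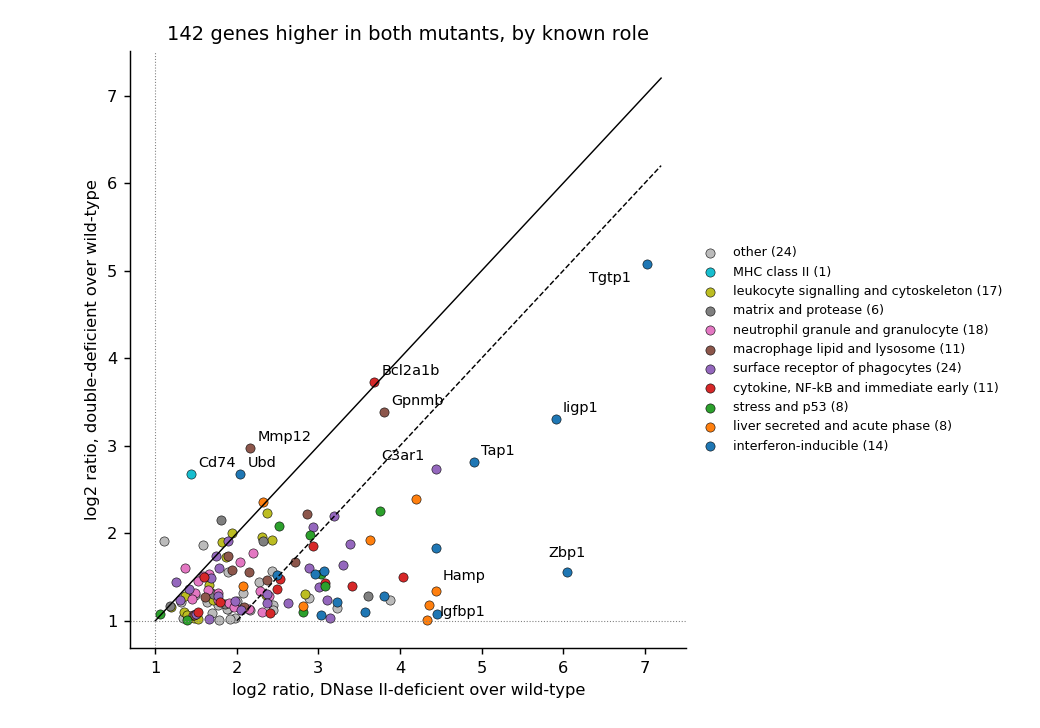
Each point is 1 of the 142 member genes, placed by its log2 ratio to wild-type in the DNase II-deficient array (x axis) and in the double-deficient array (y axis), and coloured by known role with the number of genes in brackets. The solid line marks equal values in both mutants, the dashed line a 2-fold lower value in the double-deficient array, and the dotted lines the 2-fold limits of the rule. Bcl2a1b and Gpnmb lie near the solid line at high ratios, while Zbp1, Hamp and Igfbp1 lie far below the dashed line.

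Members were grouped by known role after their values were seen, and 24 had no clear common role. Another 15 lists of genes were drawn up for the tissue with earlier results of these data known, so shares of members in them are a description only. List genes are counted as 2-fold higher or lower by their brightest probe, and only with a value above 1 in the higher array. A member that reads 1 or less in a mutant, or whose member probe is not the brightest, can therefore be missing from that mutant's count. Of the members, 69 fell in at least 1 list. The largest share of any list was that of neutrophil granule and effector genes, with 13 members among 29 measured genes, or 44.8%, whereas members made up 1.04% of all genes. In that list 19 genes were at least 2-fold higher without DNase II and 14 in the double mutant, and none was 2-fold lower in either. Their median log2 difference from wild-type was 1.55 and 1.14. Over all 13697 genes, by the brightest probe of each, 636 were higher and 513 lower without DNase II, 166 were higher and 60 lower in the double mutant, and the medians were -0.04 and 0.00.

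Genes of neutrophil granules were moderately higher than wild-type in both mutants. Of the 18 granulocyte members, 12 were under 4-fold in the single mutant, so the rule itself kept their mutant values close. Elane encodes neutrophil elastase and read 21.9, 60.5 and 45.8, which is 2.76-fold and 2.09-fold above wild-type. Camp, the gene of the antimicrobial peptide cathelicidin, read 23.8, 81.2 and 59.5, and Ngp, a neutrophil granule protein of the cathelicidin family, read 12.5, 39.3 and 36.1. Ltf, encoding the iron-binding granule protein lactoferrin, read 7.17, 22.4 and 18.3. The rule puts wild-type lowest in every member. In these 4 genes the DNase II-deficient array was highest, as it was in 128 of all 142 members. Pglyrp1, a peptidoglycan recognition protein of granules, read 4.69, 14.0 and 13.3, so the mutants differed by 1.05-fold. The cysteine protease inhibitors Stfa3 and Csta2, stefins expressed in granulocytes, read 24.2, 69.4 and 66.1 and 66.6, 186 and 166. The stefin genes are close copies, and the sources used here do not say how far their probes separate them.

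Other granulocyte genes leaned further toward the single mutant. Serpinb1a and Serpinb1b, inhibitors of neutrophil proteases and neighbours in the genome, read 14.1, 69.0 and 35.8 and 4.76, 23.5 and 10.2. Anxa1, the gene of annexin A1, which restrains neutrophil recruitment, read 15.99, 62.4 and 35.6. Of the NADPH oxidase subunits, Ncf4 was 2.02-fold lower in the double mutant than in the single one and Ncf1 was 1.34-fold lower. The collagenase gene Mmp8 read 2.17, 7.41 and 5.13. Gfi1, a transcription factor needed to form neutrophils, was dim at 0.278, 1.04 and 0.640. Hp, haptoglobin, which both hepatocytes and neutrophils make, read 10.1, 41.7 and 32.2. The granulocyte surface gene Ms4a3 was 2.74-fold and 2.39-fold above wild-type. Over the 18 granulocyte members the double-deficient value was 0.752 of the DNase II-deficient one at the median, with a range from 0.433 for Serpinb1b to 1.19 for Chil1, and 12 of 18 were within 1.5-fold.

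Neutrophil and monocyte markers outside the set were higher in the single mutant and less so in the double mutant. The 9 measured markers summed to 77.9, 246 and 183. Without the 4 members among them, the sum was 12.5, 42.9 and 23.7, carried mostly by Prtn3, proteinase 3, at 10.997, 37.9 and 20.4. Of the 5 markers that were not members, 2 were at least 2-fold higher and above 1 without DNase II and 0 were so in the double mutant, where Prtn3 was 1.86-fold and Ccr2, a monocyte chemokine receptor, 1.92-fold above wild-type. Leaving out the members removes any marker at least 2-fold higher and above 1 in both mutants. The lower double-deficient values of the 5 are thus largely set by the rule, and nothing is read from them. None of the 9 was at the floor in all arrays. Cd177, a neutrophil surface marker, read 0.128, 0.986 and 0.856, never above 1. The part of cell number in the granule gene values was not tested.

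The promoter window of Ngp is shown because it held 2 matches to the letters searched for C/EBP factors, which drive granulocyte genes. It is RefSeq sequence of build GRCm38.p6, from 250 bases before to 50 bases after the gene start, with the matches in capitals, 138 and 11 bases before the start.

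Ngp promoter, chr9:110419558-110419857, plus strand: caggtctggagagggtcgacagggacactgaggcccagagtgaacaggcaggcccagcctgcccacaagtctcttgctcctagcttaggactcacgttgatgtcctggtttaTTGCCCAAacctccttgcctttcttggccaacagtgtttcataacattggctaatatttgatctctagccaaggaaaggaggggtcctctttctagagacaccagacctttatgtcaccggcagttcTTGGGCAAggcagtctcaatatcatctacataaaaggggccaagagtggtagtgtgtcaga

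**Figure D2:**
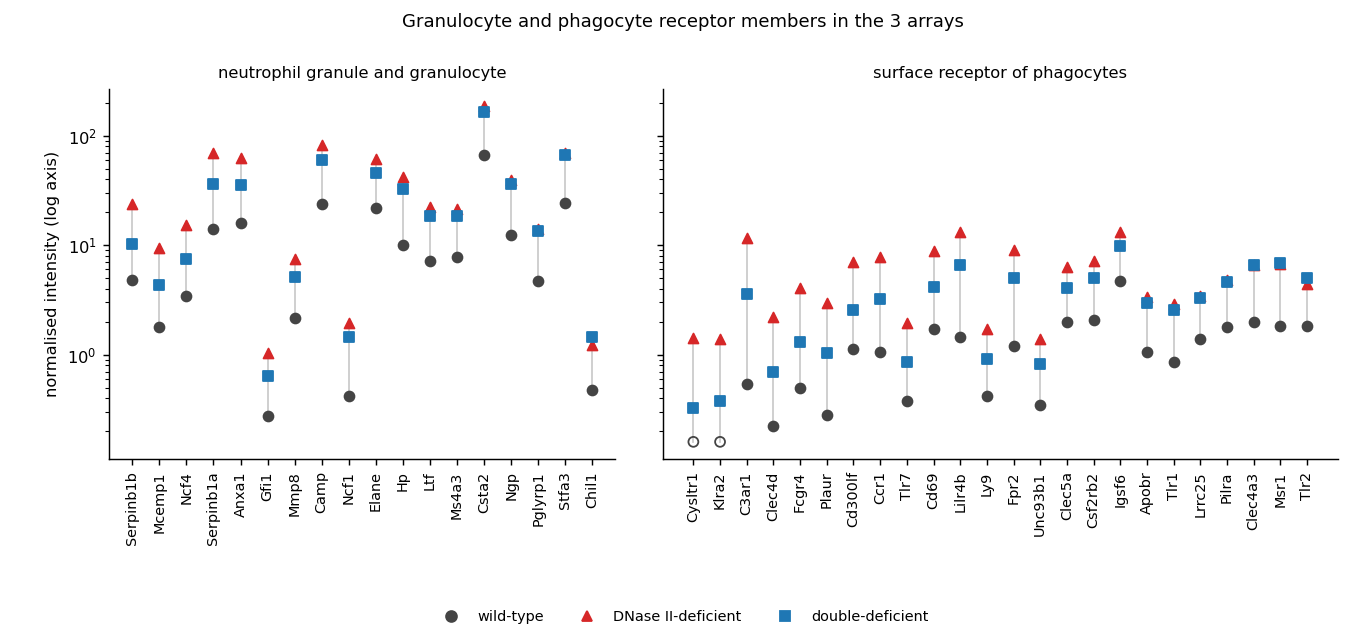
Normalised intensity on a log axis in the wild-type (circle), DNase II-deficient (triangle) and double-deficient (square) arrays for the 18 granulocyte members (left) and the 24 members grouped as phagocyte receptors (right), ordered by the ratio between the mutants. Each symbol is 1 array, and open circles are values at or below the floor of 0.16. Toward the right of each panel the mutant symbols overlap, as for Stfa3, Clec4a3 and Msr1, well above wild-type.

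Genes grouped here as receptors of phagocytes made up 24 members, and they spread over a wide range of mutant ratios. The group is broad. It also holds Cd69 and Ly9, which lymphocytes express too, the cytokine receptor chain gene Csf2rb2, and Unc93b1, which is not itself a receptor. Those for which the mutants were nearly equal included the scavenger receptor gene Msr1, at 1.83, 6.79 and 6.91, and Clec4a3, a C-type lectin, at 1.98, 6.64 and 6.63. The inhibitory receptor gene Pilra read 1.79, 4.78 and 4.61. Tlr1 and Tlr2, which pair to recognise bacterial lipopeptides, read 0.850, 2.92 and 2.58 and 1.83, 4.37 and 4.99. For Tlr2 the double mutant was the higher one, by 1.14-fold. Glipr1, of unassigned role here, was similar at 5.44, 15.3 and 13.3.

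Other receptors stood lower in the double than in the single mutant. C3ar1, the receptor for the complement fragment C3a, read 0.540, 11.7 and 3.60, 21.7-fold and 6.66-fold above wild-type. Fcgr4, an activating receptor for immunoglobulin G, read 0.501, 4.02 and 1.30. Plaur, the urokinase receptor gene, read 0.281, 2.95 and 1.04, and Clec4d, another C-type lectin, read 0.223, 2.19 and 0.695. Each of these was about 3-fold lower in the double mutant, between 2.85-fold for Plaur and 3.26-fold for C3ar1, yet still above wild-type. Lilr4b, a leukocyte receptor with close relatives in the genome, read 1.44, 13.2 and 6.60. Ccr1, a receptor for several CC chemokines, read 1.05, 7.72 and 3.20, and Fpr2, a formyl peptide receptor that attracts neutrophils, read 1.19, 9.11 and 5.01, 1.82-fold lower in the double mutant. Tlr7, the endosomal sensor of single-stranded RNA, read 0.375, 1.94 and 0.860, and Unc93b1, which carries endosomal Toll-like receptors to their compartment, read 0.350, 1.38 and 0.823, 1.68-fold lower. The brighter probe of Unc93b1 read 8.32, 11.9 and 10.02 and was not 2-fold higher in either mutant. Cysltr1, a leukotriene receptor, and Klra2, of the Ly49 family, were below the floor in wild-type and dim in the double mutant, at 0.328 and 0.378. In all, 10 of the 24 genes of this group were at least 2-fold lower in the double mutant and 9 were within 1.5-fold.

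Of 31 measured pattern recognition and scavenger receptors on the list, 8 were members. At least 2-fold higher and above 1 were 12 without DNase II and 7 in the double mutant. In the Fc receptor and adaptor list, 11 of 19 were higher without DNase II, 3 in the double mutant and 3 were members. The promoter of Clec5a, an activating receptor of myeloid cells that read 1.98, 6.25 and 4.03, is shown because it held 2 matches to the letters bound by PU.1, an ETS factor that myeloid cells require. The matches, in capitals on the opposite strand, begin 82 and 56 bases before the start in build GRCm38.p6.

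Clec5a promoter, chr6:40585756-40586055, minus strand: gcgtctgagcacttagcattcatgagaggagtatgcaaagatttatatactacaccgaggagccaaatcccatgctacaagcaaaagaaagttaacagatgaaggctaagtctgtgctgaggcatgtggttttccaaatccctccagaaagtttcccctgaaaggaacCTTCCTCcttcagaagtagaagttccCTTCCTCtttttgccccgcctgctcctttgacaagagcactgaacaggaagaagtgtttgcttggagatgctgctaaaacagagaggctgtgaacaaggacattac

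Among signalling and cytoskeleton genes of leukocytes, 15 of 17 members were within 1.5-fold between the mutants. The rule limited this difference too, since 12 of the 17 were under 4-fold in the single mutant. Inpp5d, the lipid phosphatase SHIP-1, read 0.399, 1.53 and 1.60, and the Src family kinase gene Fgr read 0.625, 2.21 and 2.33. Ptprc, which encodes the leukocyte surface phosphatase CD45, read 1.20, 3.78 and 3.18. Capg, an actin-capping protein of macrophages, read 0.459, 2.37 and 2.15, and Myo1f, a myosin of neutrophils and other myeloid cells, read 7.67, 19.5 and 16.4. Camk2d, a calcium-dependent kinase, read 0.433, 2.14 and 1.69. The exceptions were the adaptor gene Lat2, at 0.351, 2.51 and 0.866, and Cd52, at 3.40, 17.5 and 8.38. The list of phagocyte signalling and cytoskeleton genes had 5 members among 47 measured, with 19 at least 2-fold higher without DNase II and 6 in the double mutant.

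Genes of lipid-loaded macrophages and lysosomes gave 11 members. Gpnmb, a membrane glycoprotein of macrophages under lysosomal stress, was below the floor in wild-type and read 2.24 and 1.67 in the mutants, at least 14.0-fold and 10.4-fold higher. Mmp12, macrophage elastase, was also below the floor in wild-type and read 0.717 and 1.26, so the double mutant was 1.76 times the single one. Pparg, a nuclear receptor for fatty acids, read 0.519, 3.75 and 2.42, and Tfec, a macrophage relative of the lysosomal regulator TFEB, read 0.386, 1.99 and 1.07. Slc15a3, a histidine and peptide transporter of lysosomes, read 1.57, 6.05 and 4.69, and Aoah, which inactivates bacterial lipopolysaccharide, read 0.313, 1.16 and 1.04. In 10 of the 11 the DNase II-deficient value was the higher, Mmp12 being the exception, beside 128 of all 142 members. Of the 11, 5 were within 1.5-fold. Of 40 measured genes of the phagocyte lysosome and lipid list, 3 were members, or 7.5%, beside 1.04% of all genes.

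Markers of resident macrophages moved in both directions. Of 36 measured genes on the macrophage identity list, the members were Gpnmb and Mmp12, 8 were at least 2-fold higher without DNase II and 3 in the double mutant, and 4 were at least 2-fold lower in each mutant. The 8 measured macrophage markers summed to 145, 112 and 126. Cd5l and Marco, markers of liver macrophages, read 30.6, 3.41 and 4.10 and 41.1, 3.98 and 13.5, so both were far lower in the mutants. C1qb, a complement gene of macrophages, read 36.8, 65.4 and 69.4, and C1qa read 8.06, 5.73 and 9.64. The part of macrophage number in the values of the receptor and lysosome genes was not tested.

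Inflammatory regulators included the member with the closest agreement at a high fold. Bcl2a1b, of the A1 family that protects myeloid cells from apoptosis and is induced by NF-kB, read 1.71, 21.9 and 22.7, which is 12.9-fold and 13.3-fold above wild-type. The A1 genes of the mouse are near-identical copies, so the signal cannot be assigned to this copy alone. Nfkbia, the inhibitor that NF-kB induces to limit itself, read 7.27, 40.9 and 18.7. Il1b, encoding interleukin 1 beta, was dim at 0.201, 1.54 and 0.730. Ebi3, a subunit of interleukins 27 and 35, read 2.13, 7.42 and 4.97, and Relb, an NF-kB subunit, read 0.401, 1.16 and 0.856. Batf, a transcription factor of the AP-1 family, read 0.941, 2.85 and 2.66. The immediate early genes Atf3 and Jun had the widest gap, at 0.393, 6.45 and 1.11 and at 1.21, 12.96 and 3.20. For them the double mutant was 5.81-fold and 4.05-fold below the single one. Of the 11 members of this group, 7 were at least 2-fold lower in the double mutant, beside 52 of all 142 members. These were Atf3, Jun, Nfkbia, Il1b, Gadd45b, Arid5a and Mefv. The other 4 were within 1.5-fold. Of 43 measured genes of NF-kB and inflammatory feedback, 12 were at least 2-fold higher and above 1 without DNase II and 4 in the double mutant. None was 2-fold lower, and 6 were members. The members Relb and Gadd45b, at 0.856 and 0.859 in the double mutant, were 2-fold higher there but not above 1.

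The promoters of Bcl2a1b and Nfkbia are shown side by side because both genes are known NF-kB targets and their windows held different matches. That of Nfkbia held the kappaB letters 29 bases before the start. In the window of Bcl2a1b the AP-1 letters lay 164 bases before the start and overlapping ETS letters 154 and 148 bases before it, with no kappaB match in these letters. Capitals mark the matches, in build GRCm38.p6.

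Nfkbia promoter, chr12:55492598-55492897, minus strand: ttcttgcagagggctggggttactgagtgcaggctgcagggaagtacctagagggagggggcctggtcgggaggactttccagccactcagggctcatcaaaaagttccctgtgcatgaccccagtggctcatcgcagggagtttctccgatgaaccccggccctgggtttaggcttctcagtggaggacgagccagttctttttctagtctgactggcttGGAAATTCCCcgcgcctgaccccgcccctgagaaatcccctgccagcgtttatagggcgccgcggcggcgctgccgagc

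Bcl2a1b promoter, chr9:89199023-89199322, plus strand: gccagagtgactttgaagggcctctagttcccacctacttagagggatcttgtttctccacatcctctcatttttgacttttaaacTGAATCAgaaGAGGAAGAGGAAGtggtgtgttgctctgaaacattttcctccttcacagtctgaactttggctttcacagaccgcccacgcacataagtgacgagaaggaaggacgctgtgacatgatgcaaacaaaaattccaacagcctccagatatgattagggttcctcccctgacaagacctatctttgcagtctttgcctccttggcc

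Interferon-inducible genes showed a wide gap between the mutants, and 0 of them were under 4-fold in the single mutant, where the rule limits that gap most. Of 14 such members, 12 were at least 2-fold lower in the double-deficient array, beside 52 of all 79 members at 4-fold or more in the single mutant. The median ratio of the double to the single mutant was 0.240. Tgtp1, a GTPase that attacks vacuoles of intracellular pathogens, read 0.735, 96.0 and 24.9, 131-fold and 33.8-fold above wild-type. Its near-identical neighbour Tgtp2 may share the signal. Iigp1, a GTPase of the same family, read 0.16, 9.63 and 1.58, and Igtp, which regulates these GTPases, read 1.20, 11.3 and 2.79. Tap1, the peptide transporter for MHC class I, was below the floor in wild-type and read 4.796 and 1.12, at least 29.97-fold and 7.01-fold higher.

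The extremes of this group included genes near the floor in wild-type. Zbp1, a sensor of Z-form nucleic acids that can trigger necroptosis, read 0.192, 12.6 and 0.566, 22.3-fold lower in the double than in the single mutant. Slfn1 read 0.165, 3.61 and 0.347, 10.4-fold lower, while its neighbour Slfn2, a regulator of immune cell quiescence, read 3.19, 26.7 and 9.44. The double-deficient values of Zbp1 and Slfn1 rest on dim spots. Cd274, the checkpoint ligand PD-L1, read 0.420, 9.10 and 1.496. Ms4a6c and Ms4a6d, membrane proteins of macrophages and neighbours in the genome, read 4.43, 36.2 and 9.30 and 2.55, 14.3 and 7.32. Batf2, Upp1 and Parp14 read 0.224, 1.73 and 0.648, 0.199, 2.78 and 0.482, and 0.287, 3.42 and 0.618. The other probes of Parp14 did not follow its member probe: the brightest read 2.79, 1.46 and 1.87, lower in both mutants, and another read 0.138, 3.35 and 0.134. The gene that went against the group was Ubd, a ubiquitin-like modifier that tumour necrosis factor and interferon gamma induce together. It was below the floor in wild-type and read 0.660 and 1.02 in the mutants, and all 3 values were dim. Of 67 measured interferon-stimulated genes outside the left-out prefixes, 53 were at least 2-fold higher and above 1 without DNase II and 9 were so in the double mutant. Members made up 14 of the 67, some of them not above 1 in the double mutant. Cd69, grouped above with receptors, is among the 14. The list's median log2 difference from wild-type was 2.34 and 0.13.

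Of all members with a promoter sequence, 3 held both the ISRE letters, the element through which the type I interferon receptor acts, and the letters of GAS, the gamma-activated site. These were Tgtp1, Igtp and Ncf1. In Tgtp1 and Igtp the GAS match began 11 bases before the ISRE match, and 23 of 26 bases ending at the ISRE were identical between them. Both windows are shown for this shared block, with both matches in capitals, 88 and 77 bases before the start in Tgtp1 and 45 and 34 in Igtp, in build GRCm38.p6.

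Tgtp1 promoter, chr11:48992197-48992496, minus strand: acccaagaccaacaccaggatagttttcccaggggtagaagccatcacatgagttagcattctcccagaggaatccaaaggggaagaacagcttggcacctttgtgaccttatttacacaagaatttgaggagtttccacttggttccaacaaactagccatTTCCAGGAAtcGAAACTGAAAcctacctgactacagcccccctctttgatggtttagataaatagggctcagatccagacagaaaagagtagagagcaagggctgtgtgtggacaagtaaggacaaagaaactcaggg

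Igtp promoter, chr11:58199306-58199605, plus strand: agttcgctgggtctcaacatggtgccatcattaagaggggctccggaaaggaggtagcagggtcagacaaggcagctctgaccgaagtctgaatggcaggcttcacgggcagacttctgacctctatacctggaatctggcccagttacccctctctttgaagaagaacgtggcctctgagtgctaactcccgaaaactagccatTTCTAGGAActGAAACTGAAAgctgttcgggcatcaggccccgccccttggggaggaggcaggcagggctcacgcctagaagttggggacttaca

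Genes grouped here as liver genes, most of them secreted or acute phase, were mostly far higher in the single than in the double mutant. Of these, 6 of 8 were at least 2-fold lower in the latter. All 8 were at 4-fold or more in the single mutant, where the rule allows such a gap. Of all 79 members at that level, 52 were at least 2-fold lower, so nothing particular to liver genes is read from the count. The 6 include the cytochrome P450 gene Cyp2a5, whose enzyme is not secreted, at 0.186, 1.31 and 0.418. The acute phase gene Hp, grouped above with granulocytes, is not among the 8, and its mutant ratio was 0.773. Hamp, the gene of hepcidin, which blocks iron export, read 5.43, 118 and 13.7, an 8.56-fold drop between the mutants that left it 2.53-fold above wild-type. Igfbp1, a binding protein of insulin-like growth factors induced by fasting and low oxygen, read 4.06, 82.8 and 9.19. Serpina3n, an acute phase protease inhibitor, read 0.440, 8.84 and 0.883. Fgl1 and Lrg1, both induced in liver by interleukin 6, read 0.111, 2.93 and 0.838 and 0.303, 3.74 and 1.15. The pantetheinase genes behaved otherwise. Vnn1 read 3.39, 14.3 and 8.94, and its neighbour Vnn3 read 0.624, 3.11 and 3.19, so that the mutants were nearly equal for Vnn3. Of 36 measured acute phase, metal and iron genes, 4 were members. At least 2-fold higher and above 1 were 7 without DNase II and 2 in the double mutant, where Fgl1 and Serpina3n were not above 1.

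The promoter of Hamp is shown because 2 matches lay close together in it. Its window held the GAS letters 97 bases and the AP-1 letters 87 bases before the start, in capitals, in build GRCm38.p6.

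Hamp promoter, chr7:30943980-30944279, minus strand: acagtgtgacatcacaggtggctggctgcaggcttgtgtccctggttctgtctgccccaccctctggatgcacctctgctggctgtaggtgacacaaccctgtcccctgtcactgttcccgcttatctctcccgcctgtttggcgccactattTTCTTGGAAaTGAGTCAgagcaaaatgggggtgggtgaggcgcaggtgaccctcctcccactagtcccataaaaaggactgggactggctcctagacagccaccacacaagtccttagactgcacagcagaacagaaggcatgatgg

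**Figure D3:**
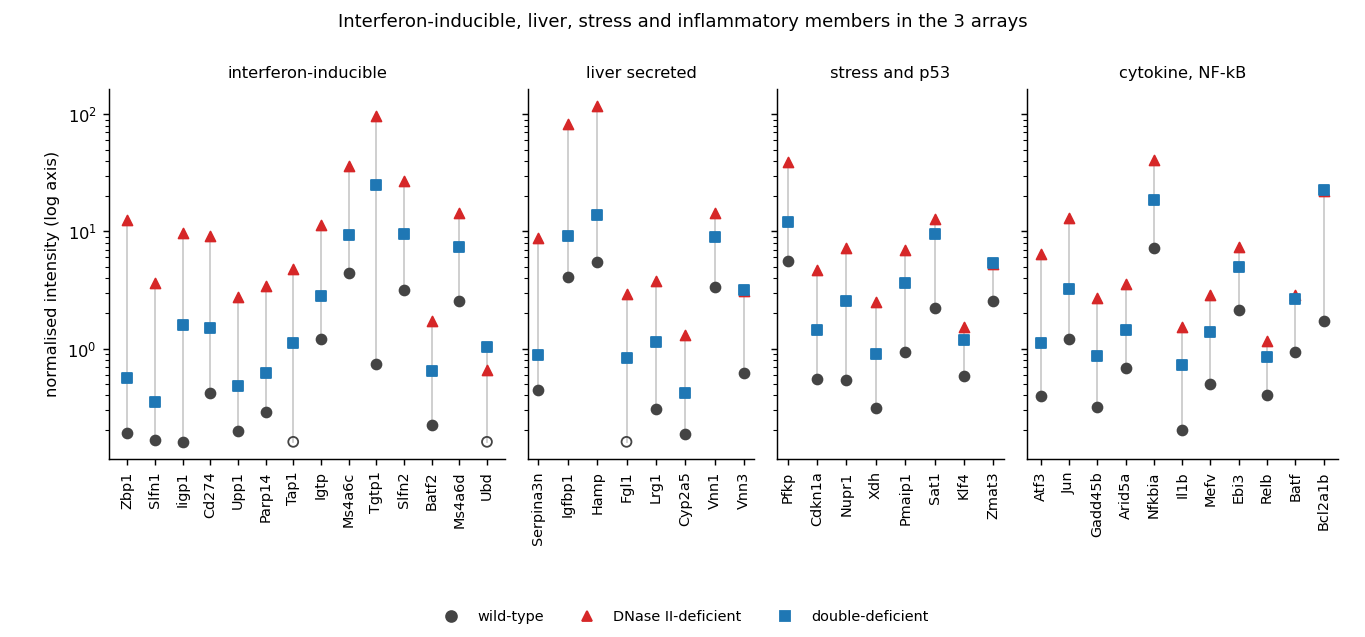
Normalised intensity on a log axis in the wild-type (circle), DNase II-deficient (triangle) and double-deficient (square) arrays for the interferon-inducible, liver secreted, stress and inflammatory members, ordered within each panel by the ratio between the mutants. Each symbol is 1 array, and open circles are values at or below 0.16. Squares sit near the circles for Zbp1, Serpina3n, Igfbp1 and Hamp, and on the triangles for Vnn3, Zmat3 and Bcl2a1b.

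Stress genes divided in the same way. Zmat3, a p53 target that binds RNA, read 2.56, 5.31 and 5.39, and Sat1, which breaks down polyamines, read 2.23, 12.8 and 9.42. Pmaip1, the pro-apoptotic p53 target Noxa, read 0.929, 6.92 and 3.66, while Cdkn1a, the cell cycle inhibitor p21, read 0.551, 4.65 and 1.45. Nupr1, a stress-induced nuclear protein, read 0.534, 7.21 and 2.56, and the glycolytic enzyme gene Pfkp read 5.59, 39.1 and 11.99. The group also holds Klf4 and Xdh, the latter at 0.308, 2.52 and 0.896. Of its 8 members, 4 were at least 2-fold lower in the double mutant than in the single one, namely Cdkn1a, Nupr1, Pfkp and Xdh. Another 3 were within 1.5-fold. Of 46 measured hypoxia, heat and stress genes, 16 were at least 2-fold higher without DNase II, 4 in the double mutant and 4 were members.

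Among matrix and protease genes the double mutant exceeded the single one for Timp1, an inhibitor of metalloproteinases, at 0.783, 2.73 and 3.49. Adam15, a membrane metalloproteinase, was equal in both, at 1.12, 2.54 and 2.52. Vcan, the proteoglycan versican that monocytes and stroma make, read 0.339, 1.69 and 1.28, but another probe of Vcan stayed under 0.16 throughout. Adam8, a protease of myeloid cells, went the other way at 0.476, 5.79 and 1.16. Mesenchymal markers, none of them a member, summed to 95.0, 155 and 109, and the largest part was Col3a1. The part of stromal cells in these values was not tested.

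The member with the largest excess in the double mutant was Cd74, the invariant chain of MHC class II, at 0.898, 2.43 and 5.73. It was 2.70-fold above wild-type in the single mutant and 6.38-fold in the double mutant, 2.36 times the single mutant's value. The others at 1.5-fold or more were Mmp12, Ubd and Tmem273, a gene of unassigned role that read 0.841, 1.81 and 3.16. The remaining 10 of the 14 genes that were higher in the double mutant differed by 1.28-fold or less, and for Bcl2a1b, Fgr, Inpp5d, Msr1, Vnn3 and Zmat3 the sign of that small difference turned under other scalings of the arrays.

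**Figure D4:**
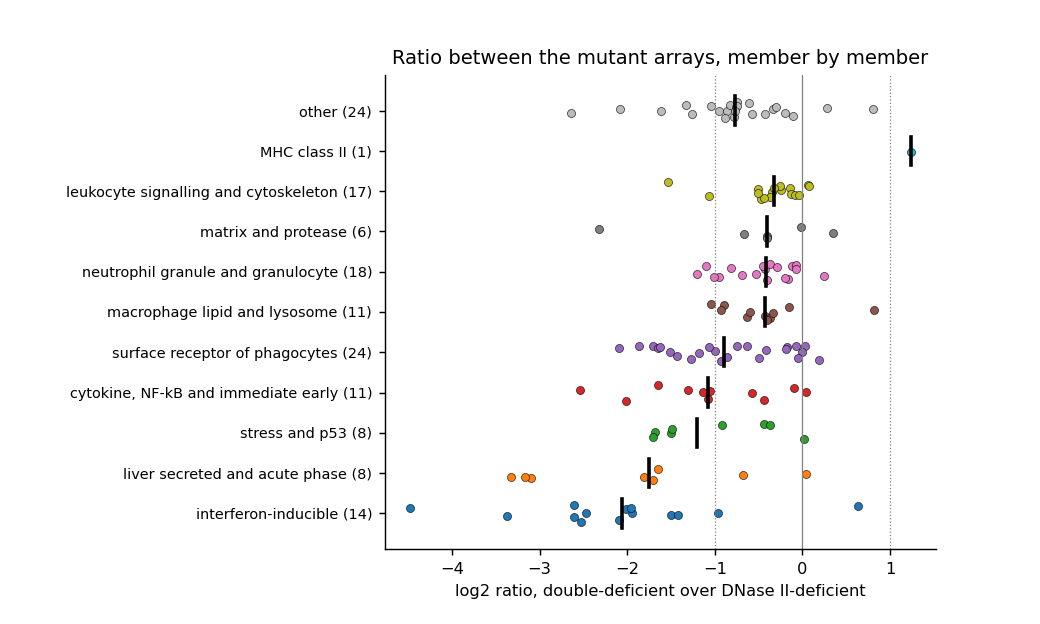
Each point is 1 member gene, placed by its log2 ratio of double-deficient over DNase II-deficient (x axis) within its role group (rows, with the number of genes). Black bars are group medians, the solid line is equality and the dotted lines are 2-fold. The medians ranged from -2.06 for interferon-inducible genes to -0.33 for leukocyte signalling genes, apart from Cd74 alone at 1.24. Point height within a row is random.

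The 24 members without a common role ranged in mutant ratio from 0.1597 to 1.74. Of these, 6 were at least 2-fold lower in the double mutant and 7 were within 1.5-fold. Apobec1, an RNA-editing enzyme, read 1.80, 9.79 and 4.08, and Penk, which encodes an opioid precursor, read 0.538, 2.16 and 1.26. Galnt3, which starts O-linked glycans, read 0.290, 0.869 and 1.06. The other named members were Nrg4, Parp3, Parp8, Spaca9, Lhx4, Fgl2, Guca1a, Zfp455, Glrp1, Fxyd5, Shisa2, Pkib, Mvp and Kirrel3, and 2 members with clone-based symbols are counted without a name.

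A second probe was the nearest thing to a repeat measurement, and it existed for 11 member genes, as 12 probes. Of these, 2 met the rule too, those of Ms4a6d at 0.528, 3.89 and 1.63 and of Snx10, an endosomal sorting gene, at 1.52, 7.30 and 3.98. The other 10 did not. In 3 all arrays were at or below the floor. Among the 9 that exceeded 1 in some array, 7 were higher in both mutants than in wild-type by any amount. In the double mutant those of Grb10, Gng2 and Unc93b1 were only 1.04-fold, 1.08-fold and 1.20-fold higher. The same count was not made over all probes, so nothing is read from it. The second probe of Grb10 read 189, 208 and 197 where the member probe read 0.313, 1.40 and 0.679, and that of Lbh read 5.79, 10.2 and 7.63. Membership of Grb10, Lbh, Gng2, Unc93b1 and Parp14 thus rested on a probe that was not the brightest of its gene, and the sources used here do not say which transcripts each probe detects.

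Some members were neighbours in the genome. All 142 matched the gene table of the mouse reference by identifier. Among the 140 placed protein-coding members, 25 lay within 5 protein-coding genes of another member, in 12 groups. These included Ms4a6c, Ms4a6d and Ms4a3, the pair Mmp12 and Mmp8, the pair C3ar1 and Clec4a3, and the pair Ncf4 and Csf2rb2, the last a cytokine receptor chain. The same count was not made for other sets of genes, so nothing is read from its size. Several groups are families of related sequence, so their probes may not be independent.

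Promoter windows of 300 bases were available for 111 members, as 131 windows, and 13761 windows of measured genes served for comparison. The letters searched on both strands were TTCNNNGAA for GAS, CACGTG for the E-box, TGANTCA for AP-1, TTGCNNAA for C/EBP and GAGGAAG for ETS factors of the PU.1 kind, beside the ISRE and kappaB elements. AP-1 letters were in 19 of 131 member windows and in 6.92% of all windows, and C/EBP letters in 16.8% and 9.96%. GAS letters were in 12.2% and 7.26%, and ISRE letters in 6.87% and 3.23%. The kappaB letters were in 3 member windows, 2.29% against 0.487%, ETS letters in 16.8% against 13.6%, and E-box letters in 6.11% against 8.63%. C/EBP letters were found in 6 of 15 granulocyte members with a window, among them Ngp, Ltf, Mmp8 and Ms4a3, and ETS letters in 9 of 17 receptor members, 2 roles named here for their high counts. C/EBP letters were not particular to granulocyte members, since 4 of 9 macrophage lipid and lysosome members with a window held them too. Counted by gene, C/EBP and ETS letters were in 11.5% and 15.7% of all measured genes with a window. Matches are descriptions of these windows and say nothing of binding.

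**Figure D5:**
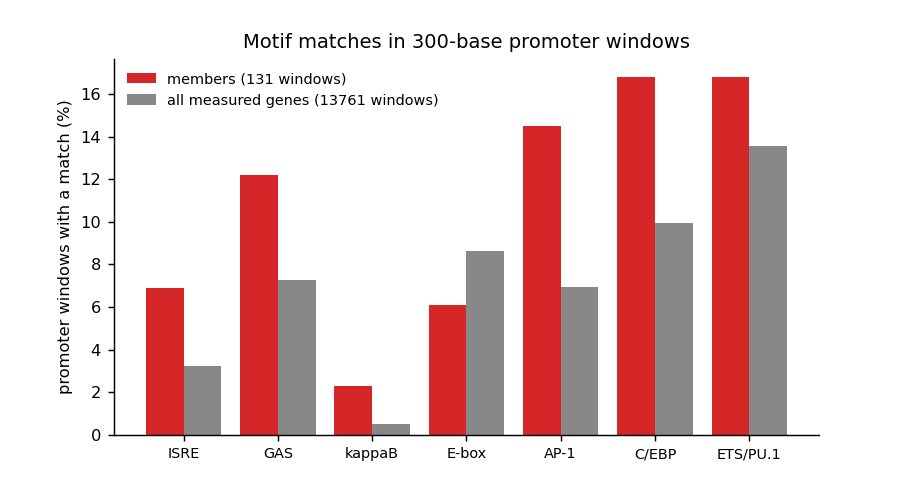
Bars give the percentage of promoter windows of 300 bases that hold at least 1 match to each motif on either strand, for 131 windows of member genes and 13761 windows of all measured genes. Member windows held kappaB letters in 2.29% against 0.487% and C/EBP letters in 16.8% against 9.96%, while E-box letters were in 6.11% against 8.63%.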

How the data were processed

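The deposited values are one intensity per probe. Per the labels, single-colour CodeLink scans of cRNA made from poly(A) RNA were analysed by the authors in CodeLink System Software. Its version, background method and normalisation are not stated there. Array medians were nearly equal, and 267, 224 and 253 values were at or below 0. Of 20289 probes, 125 lacked a value, and 15120 had 1 symbol in the platform annotation, 38 several and 5131 none. List counts used each gene's brightest probe and a value above 1 in the higher array. With 1 array per genotype no test was run. Named were the members with the largest smaller ratio, the brightest, the extremes of the mutant ratio, those at the limit, and list or role members. The members and lists were chosen with earlier results of these data known, and roles were assigned after values were seen. Member finding was tested on simulated data. Python 3.11.15, pandas 2.3.3 and, for cyclic loess, limma 3.58.1 in R 4.3.3 were used. All value columns were used.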

Additional observations from a re-analysis of the deposited data

How the results depend on the processing

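The number of members was 142 as reported, and 153, 174 and 184 after quantile normalisation, scaling to the 75th percentile and cyclic loess. Of the 142, these held 139, 142 and 142. Counts between the mutants stayed within 1.5 times under these scalings, and no member with a 2-fold difference between the mutants reversed under a scaling or a floor of 0.5 or 0.08. With a floor of 0.5, 32 of 107 members were at least 2-fold lower in the double mutant, beside 52 of 142 as reported. The median log2 difference between the mutants was then -0.49. With no level requirement it was -0.52, and 91 of 182 members were within 1.5-fold, beside 60 of 142. At a fold of 1.5 there were 341 members, 85 of them at least 2-fold lower and 182 within 1.5-fold, with a median of -0.48. At a fold of 3 there were 38, with 14, 18 and 0 at least 2-fold higher, and a median of -0.47. Keeping all prefixes gave 2 members at least 2-fold higher. Restricting to the 85 members above 0.5 in wild-type, a choice made after seeing the data, left 24 at least 2-fold lower and a median of -0.58. The counts differ by construction where fewer or more genes qualify. No paired analysis was possible because each genotype has 1 array. Signal over background limits the 81 members at 1 or less in wild-type.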

Other observations

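Another 15 probes, without a gene symbol, were chosen by the same fold and level limits, with a smaller ratio between 2.03 and 3.54. In 6 of them the double-deficient value was at least 2-fold below the DNase II-deficient one, and in 7 the mutants were within 1.5-fold, beside 4.75% and 77.4% of all probes with 1 symbol that exceeded 1 in a mutant. The limits bound this ratio, so nothing is read from the counts. Their median ratio of double-deficient to DNase II-deficient was 0.628. They are unnamed here and are not counted among the genes above.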
